A study of Homo sapiens with 39 samples.

Results

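Clone 1.1 of A375, a human melanoma cell line, was set against the wild-type line (WT) by RNA sequencing. The labels give 3 libraries of clone 1.1, whose genotype is R1_del, and 4 libraries of A375 WT, which makes 7 of the 39 libraries of the series. They were chosen by their titles and by the line and genotype labels, not by any measured value. R1 and R4 are the labels' names for deleted regions, which the design text describes as enhancer sequence of SOX10. The remaining A375 libraries, used here for the spread between libraries and for comparisons between clones, are clone 1.2 (R1_del, 4 libraries), clone 4.1 (R4_del, 4 libraries) and clone 4.2 (R4_del, 3 libraries). The labels name no drug, dose or time point for any of these groups, and they do not say how the region was removed, how many alleles carry the deletion or whether libraries came from separate cultures. Clone 1.1 is 1 clone, so its differences from WT can come from the deletion or from anything else in which this clone differs, which cannot be told apart. Its p-values measure the spread between these libraries, which may be technical.

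SOX10 is a neural crest transcription factor that keeps the identity of melanocytes and Schwann cells. It drives MITF, the regulator of pigment cell genes, and melanoma cells that lose SOX10 are known for an undifferentiated state with high levels of EGFR and of extracellular matrix genes. Cancer-testis antigens are genes of the male germ line, mostly on the X chromosome, that many melanomas express.

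The authors deposited gene-level TPM, in which reads are scaled by transcript length and by library. Read depth is unknown because no counts were used. SOX10 itself was measured at 702, 706, 691 and 629.8 TPM in WT libraries 1 to 4 and at 667, 491 and 381 TPM in the libraries of clone 1.1. Library 1 of the clone lay inside the WT range and the other two below it, and the difference of -0.45 (SE 0.16, limma, adjusted p = 0.286) did not pass the threshold. TYR, TYRP1, DCT and MLANA, which mark pigmented melanocytes, were under 1 TPM in all 7 libraries, and PMEL did not exceed 1.62 TPM, so the label of a skin melanoma line is matched by SOX10 and MITF and not by pigment genes. Markers of other cell types were low: summed over their lists of 10 genes each, fibroblast markers came to 6.29 to 12.5 TPM in WT and 5.49 to 8.5 TPM in the clone, and endothelial markers to 3.10 to 4.26 and 2.33 to 2.70 TPM. Immune markers summed to 27.9 to 121.9 and 43.0 to 77.5 TPM and keratinocyte markers to 69.2 to 118.1 and 73.3 to 118.6 TPM. Of each 10, 4 fibroblast, 7 endothelial, 7 immune and 5 keratinocyte genes were under 1 TPM in all 7 libraries, and the B cell marker MS4A1 was at 0 in all of them. The higher immune and keratinocyte sums came mostly from CD68 (35.2, 119.7, 20.7 and 20.6 TPM in WT, 67.5, 32.5 and 37.7 TPM in the clone) and from KRT10 (77.4, 64.7, 77.9 and 87.9 and 64.4, 98.4 and 83.4 TPM), with LYZ at 7.59, 1.62, 5.68 and 6.8 and 9.3, 8.66 and 5.73 TPM and KRT14 at 10.6, 0.911, 4.72 and 26.4 and 4.48, 13.7 and 18.8 TPM. The most abundant fibroblast and endothelial markers by the rule were TWIST2 (4.77, 2.08, 2.75 and 5.31 and 2.88, 3.54 and 4.74 TPM), LUM (1.28, 1.3, 0.845 and 2.47 and 1.34, 0.316 and 1.4 TPM), KDR (1.21, 0.969, 1.2 and 1.49 and 0.609, 0.24 and 0.956 TPM) and ESAM (0.563, 0.497, 1.49 and 0.948 and 0.344, 1.15 and 1.1 TPM). The share of TPM from mitochondrial genes averaged 2.09% ± 1.17 (SD, n = 3) in the clone and 2.35% ± 1.73 (SD, n = 4) in WT (exact permutation test, two-sided, p = 0.8, where the smallest possible p is 0.0571). WT library 3 at 4.92% and clone library 2 at 3.43% stood above the rest.

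Libraries differed in their cell cycle genes within each group. The 32 S phase genes summed to 2624, 858, 1945 and 3778 TPM in WT libraries 1 to 4 and to 1762, 3987 and 3964 TPM in the clone. WT library 2 and clone library 1 were the lowest of their groups, and the groups overlap. The counts of called genes for clone 1.1 against WT, against clone 1.2 and against the mean of the other clones were therefore also computed without each library.

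A gene was tested when it had at least 1 TPM in at least 3 of the 18 A375 libraries, which left 16692 genes. Differences are on the log2(TPM + 1) scale, which understates the change of genes with few TPM. The word called is kept for genes with a limma p under 0.05 after Benjamini-Hochberg adjustment and a difference of 1 or more in either direction. Against WT, 122 genes were called in clone 1.1, or 0.731% of those tested. Of these, 31 rose (0.186%) and 91 fell (0.545%). Counts of called genes in the lists below are to be read beside these shares. After quantile normalization 130 genes were called, and the share that rose was 36.9% in place of 25.4%. Without clone library 1 the count was 223, and without clone library 2 it was 56. With each WT library left out in turn it was 90 to 163. In 120 of the 122 genes all libraries of one group lay beyond all libraries of the other, where 7.41% of all tested genes had groups that do not overlap. The calls were made on these same libraries, so this separation follows largely from how the genes were picked and is no separate evidence. The median difference over all tested genes was 0.011. With no minimum difference 173 genes (1.04%) passed, and 1679 (10.1%) had an unadjusted p under 0.05. A fit of clone 1.1 and WT alone called 34 genes and lost 22 of the named calls: TFPI2, BGN, IL24, S100A3, ACTBL2, ADAM19, NTSR1, PLA2G7, ADGRF1, EGFR, SLC7A11, AC003092.1, LINC00973, HLA-DQA1, SOX8, VWA1, SPON2, TRAF1, ACAN, GAGE2E, GAGE12D and GAGE13. With only libraries of low mitochondrial share 28 genes were called, and the calls of LYPD3, RXRG, CTSK, S100A16 and CTAG2 were lost along with all of the former but GAGE2E and GAGE13. Many called genes were scarce: 61 had a mean under 5 TPM in WT.

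**Figure D1:**
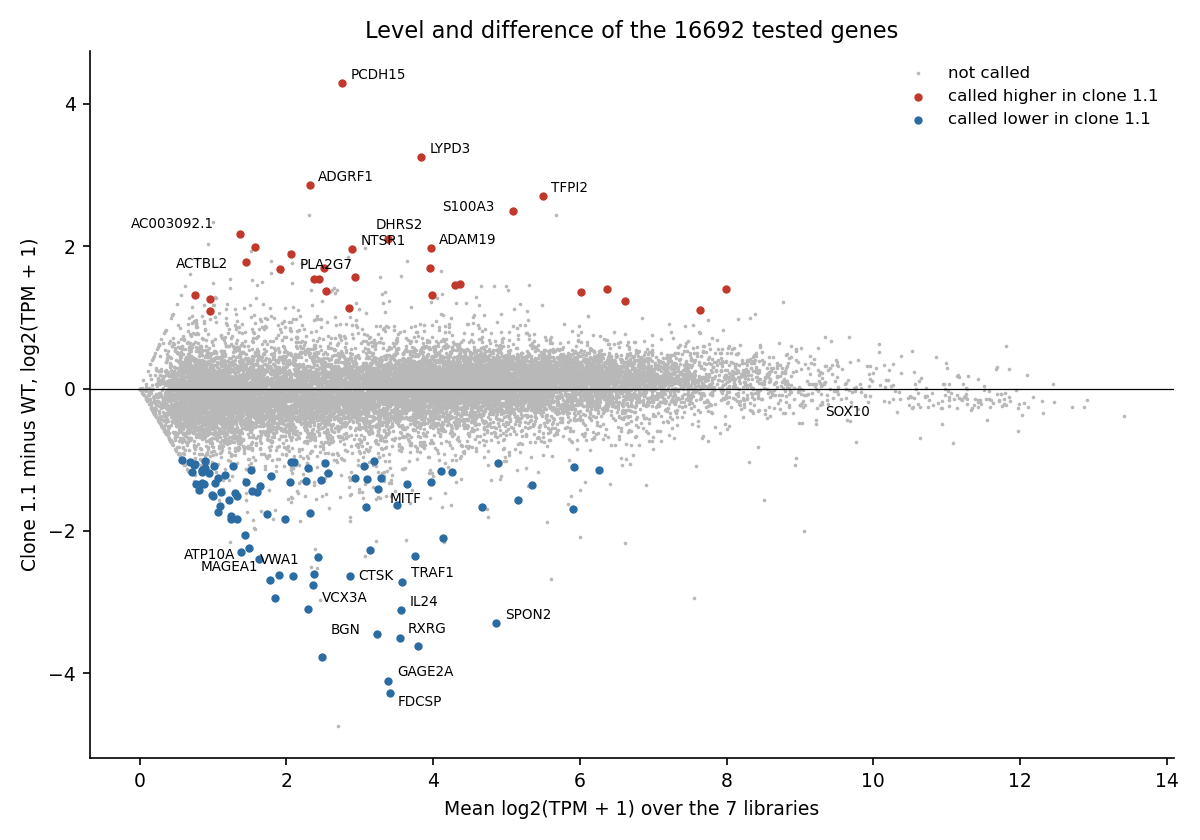
Each point is 1 of the 16692 tested genes, with its mean log2(TPM + 1) over the 7 libraries on the x axis and clone 1.1 minus WT on the y axis; the 31 genes called higher are red and the 91 called lower are blue. PCDH15 (4.29) and FDCSP (-4.28) are the called genes furthest from 0, and SOX10 (-0.45) lies among the genes that were not called.

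Promoters are shown for members of a family that fell together and for a pair of genes that rose. The sequences are RefSeq promoters on GRCh38.p14, from 250 bases before the start of the gene to 50 after it. The table holds 12 GAGE promoters, and those of GAGE12C, GAGE12D, GAGE12E, GAGE12F, GAGE12H, GAGE12J and GAGE2A are identical over all 300 bases, so 1 sequence stands for 7 genes. GAGE1 is shown beside it. Capitals mark the letters CACGTG, a form of the E-box, which are in all 12 GAGE promoters, in 7.43% of the 27305 promoters searched and in 10.1% of those of tested genes. It reads the same on both strands.

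GAGE12C, chrX:49531927-49532226, plus strand: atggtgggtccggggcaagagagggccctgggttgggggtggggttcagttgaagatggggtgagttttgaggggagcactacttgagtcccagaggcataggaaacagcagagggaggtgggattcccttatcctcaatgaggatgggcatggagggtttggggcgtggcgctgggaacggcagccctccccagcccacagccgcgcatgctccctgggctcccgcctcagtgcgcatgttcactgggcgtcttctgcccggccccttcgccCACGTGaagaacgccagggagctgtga

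GAGE1, chrX:49598763-49599062, plus strand: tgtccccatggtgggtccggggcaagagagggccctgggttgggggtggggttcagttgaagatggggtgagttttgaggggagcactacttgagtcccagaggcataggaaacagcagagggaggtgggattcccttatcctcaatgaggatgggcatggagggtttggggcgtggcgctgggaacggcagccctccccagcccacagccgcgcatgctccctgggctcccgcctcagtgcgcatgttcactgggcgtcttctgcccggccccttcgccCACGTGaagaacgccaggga

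The other pair is TFPI2 and S100A3. Capitals mark the letters TGANTCA, where N is any base, searched on both strands. It is a loose form of the site bound by AP-1 factors. Of the 22 promoters found for genes called higher, 3 held a match (TFPI2, S100A3 and LINC00973, or 13.6%), as did 9 of the 65 found for genes called lower (13.8%), 4.68% of those of tested genes and 7.76% of all in the table. The match begins at base 164 of the TFPI2 promoter and at base 26 of the S100A3 promoter. A match describes letters in a window and nothing about binding.

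TFPI2, chr7:93890704-93891003, minus strand: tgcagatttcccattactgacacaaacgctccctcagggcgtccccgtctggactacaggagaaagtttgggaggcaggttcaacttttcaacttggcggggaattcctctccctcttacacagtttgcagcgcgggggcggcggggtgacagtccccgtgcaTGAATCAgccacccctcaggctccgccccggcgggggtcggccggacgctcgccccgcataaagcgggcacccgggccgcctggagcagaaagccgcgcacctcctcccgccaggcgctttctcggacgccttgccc

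S100A3, chr1:153549209-153549508, minus strand: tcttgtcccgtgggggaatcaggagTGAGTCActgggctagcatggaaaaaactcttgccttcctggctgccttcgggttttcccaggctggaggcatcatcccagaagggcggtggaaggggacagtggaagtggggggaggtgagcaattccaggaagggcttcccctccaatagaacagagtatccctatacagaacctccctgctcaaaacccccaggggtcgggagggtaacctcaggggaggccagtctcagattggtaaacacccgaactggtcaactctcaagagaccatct

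Lineage genes came first among the comparisons, since the deleted region is described as an enhancer of a lineage factor. MITF fell, and so did SOX8 and RXRG, while the neural crest list as a whole held 1 call. MITF was at 22.2, 21.5, 26.7 and 18.7 TPM in WT and at 7.53, 7.41 and 10.3 TPM in clone 1.1, a difference of -1.31 (SE 0.19, limma, adjusted p = 0.00165). No library of the clone reached the lowest WT library. In bulk RNA, fewer cells with a transcript and less of it per cell cannot be told apart. It was the 1 member called of the 8 tested in a list of 22 melanocytic genes, whose median difference was -0.16. Of the rest, 14 genes of that list were under 1 TPM in all 7 libraries.

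SOX8, a relative of SOX10 that acts in the same lineages, was at 3.16, 4.44, 3.11 and 1.9 TPM in WT and at 0.544, 0.014 and 0.013 TPM in the clone (-1.80, limma, adjusted p = 0.0115). Its groups did not overlap, but the level was low throughout and the call was lost without clone library 2 or without clone library 3. RXRG, a retinoid X receptor known from neural crest stem cells and from drug-tolerant melanoma cells, was at 29.9, 35.8, 50.2 and 19.4 TPM in WT and at 4.34, 2.14 and 0.488 TPM in the clone (-3.50, SE 0.39, limma, adjusted p = 9.08e-05). All 3 clone libraries lay far below the lowest WT library. It was the 1 gene called of 14 tested in the retinoid list, which has a median of -0.15.

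Of 25 tested neural crest and glial genes, SOX8 alone was called. The list's median was -0.47 and 22 of its 25 members lay below 0, where 48.6% of all tested genes did. In 2 of them every clone 1.1 library was below every WT library, where 4.71% of all tested genes had that order. Against WT the list's median was -0.37 in clone 1.2, -0.022 in clone 4.1 and -0.19 in clone 4.2. In clone 1.2, 5 members were called lower and 2 higher. PAX3, a transcription factor upstream of MITF, was chosen after its values were seen and measured 12.3, 11.3, 11.3 and 12.3 TPM in WT and 10.7, 13.7 and 11.2 TPM in the clone, with overlapping groups.

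In the list of the undifferentiated state, 2 of 21 tested genes rose (0.186% over all tested genes) and none was called lower. The list's median was 0.060. EGFR, the receptor for epidermal growth factor, was at 5.12, 5.02, 2.46 and 4.64 TPM in WT and at 7.85, 10.7 and 13.1 TPM in clone 1.1 (1.13, SE 0.23, limma, adjusted p = 0.0187). Every clone library was above every WT library, and the call was lost without WT library 3, without clone library 2 or without clone library 3. EGFR was also the 1 call among 21 growth factor receptors (median -0.16). Of 23 tested TGF-beta genes, 1 rose and none was called lower (median 0.13).

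Cancer-testis antigens held the largest group of genes that fell. GAGE genes, near-identical copies on the X chromosome whose products are shown to T cells, summed to 121.4, 111.5, 156.0 and 132.7 TPM in WT and to 5.4, 9.53 and 9.23 TPM in clone 1.1, with groups far apart. The mean was 130.4 ± 19.2 TPM (SD, n = 4) in WT and 8.06 ± 2.30 TPM (SD, n = 3) in the clone, 16.2-fold lower (exact permutation test, two-sided, p = 0.0571, the smallest that 3 against 4 libraries allow). Of 13 GAGE genes listed, 11 were tested and 8 were called, all lower (0.545% over all tested genes). The median over the 11 was -2.29.

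The copies share sequence, as their promoters above show, so the value of a single copy is uncertain and the sum is the safer measure. The most abundant WT copies were GAGE2E at 41, 39, 38.2 and 40.3 TPM and GAGE2A at 35.6, 25.7, 43.3 and 35.7 TPM. In the clone they were at 0, 4.84 and 5.2 TPM and at 0.421, 1.77 and 1.24 TPM. The largest difference was that of GAGE2A (-4.10, SE 0.22, limma, adjusted p = 1.26e-08). GAGE12C, GAGE1, GAGE12D, GAGE12H, GAGE12J and GAGE13 were the other calls, with differences from -3.77 for GAGE12C to -1.49 for GAGE13, whose call was lost without clone library 2.

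VCX genes, another family of the X chromosome's short arm, fell too. Their sum was 37.9, 22.9, 61.6 and 45.2 TPM in WT and 6.38, 5.51 and 7.53 TPM in clone 1.1, 6.47-fold lower in the mean with groups that did not overlap. VCX3A (-2.76), VCX (-2.70) and VCX2 (-2.64) were called of 4 tested (limma, adjusted p = 6.99e-05, 4.31e-06 and 3.28e-06). The family consists of paralogs, so the sum is again the safer measure.

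Among 25 other tested cancer-testis genes 3 fell (0.545% over all tested genes) and none rose, with a median of -0.13. MAGEA1, the founding member of the MAGE antigens, was at 7.45, 4.46, 8.67 and 8.93 TPM in WT and at 0.175, 0.392 and 0.436 TPM in the clone (-2.62, SE 0.25, adjusted p = 2.05e-05). SPANXB1, a sperm protein, was at 3.79, 3.03, 2.65 and 2.95 TPM in WT and at 0, 0 and 0.495 TPM in the clone (-1.84, adjusted p = 0.000252). CTAG2, a relative of NY-ESO-1, was at 3.53, 3.9, 3.72 and 3.44 TPM in WT and at 0.744, 0.66 and 0.699 TPM in the clone (-1.45, adjusted p = 0.000198). None of these genes had overlapping groups. The sums of the abundant families overlapped between groups. The 13 MAGEA genes summed to 1105, 678, 1304 and 1214 TPM in WT and 941.8, 1132 and 1230 TPM in the clone. XAGE genes summed to between 426.7 and 711.9 TPM in WT and between 431.7 and 698.4 TPM in the clone.

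Set beside the other clones, the families did not keep one order. The GAGE sum averaged 563.3 ± 50.7 TPM (SD, n = 4) in clone 1.2, which carries the same genotype label, 28.6 ± 3.87 (SD, n = 4) in clone 4.1 and 14.1 ± 0.976 (SD, n = 3) in clone 4.2. Clone 1.1 was thus the lowest of the 5 groups and clone 1.2 the highest, with no overlap between any neighbours in that order. The VCX sum averaged 35.5 ± 4.78 TPM (SD, n = 4) in clone 1.2, 5.31 ± 1.92 (SD, n = 4) in clone 4.1 and 26.5 ± 2.13 (SD, n = 3) in clone 4.2. Clones 1.1 and 4.1 overlapped at the low end, and WT overlapped clones 1.2 and 4.2 at the high end. MAGEA1 averaged 3.05 TPM in clone 1.2, 23.2 in clone 4.1 and 1.53 in clone 4.2. SPANXB1 averaged 36.4 TPM in clone 1.2 and was listed at 0 in every library of clones 4.1 and 4.2.

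**Figure D2:**
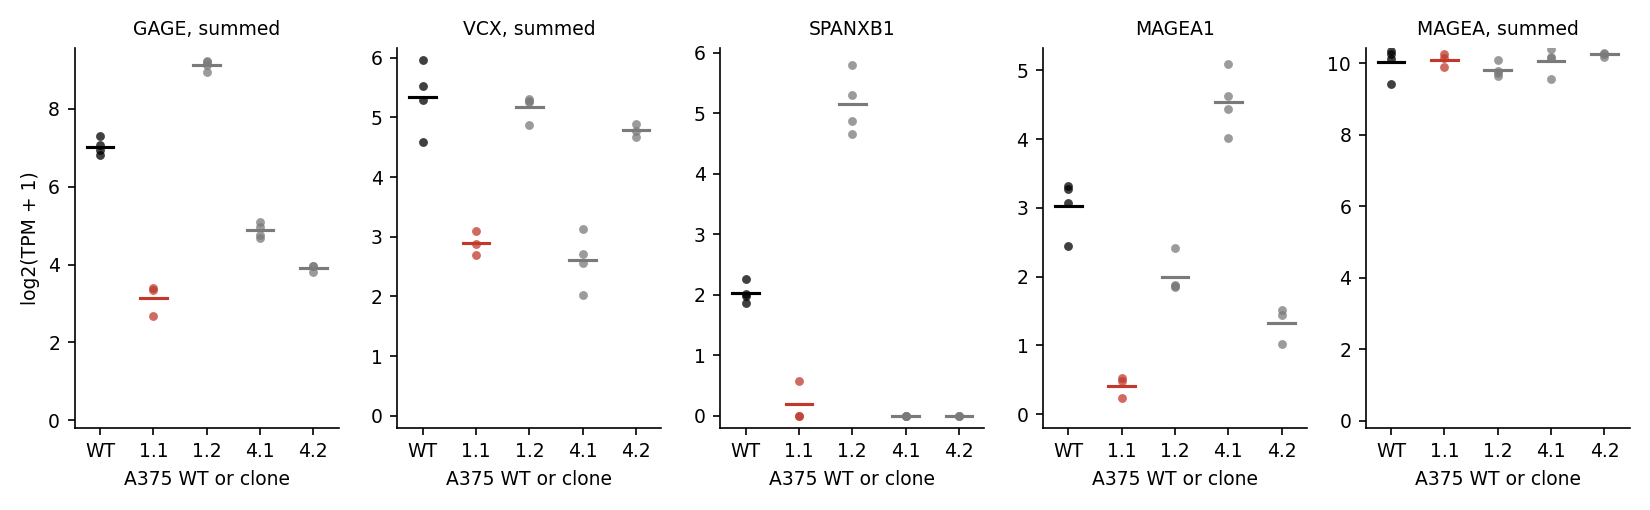
Each panel shows log2(TPM + 1) of a cancer-testis family or gene in all 18 A375 libraries, 1 point a library with a bar at the group mean; WT is black and clone 1.1 red. The GAGE sum is lowest in clone 1.1 and highest in clone 1.2, while the MAGEA sum, with a clone 1.1 mean of 1101 TPM and a WT mean of 1075 TPM, lies near 10 in every group.

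Genes of the extracellular matrix moved in both directions. BGN, ACAN, SPON2 and VWA1, which encode matrix proteins, fell, as did the collagen-degrading protease CTSK, while the inhibitor TFPI2 and the protease ADAM19 rose. BGN, the proteoglycan biglycan, was at 16.1, 55.2, 40.1 and 10.9 TPM in WT and at 2.58, 1.4 and 0.605 TPM in clone 1.1 (-3.45, SE 0.53, limma, adjusted p = 0.00255). The WT libraries spread widely, but the clone's stayed below all of them. ACAN, the proteoglycan aggrecan, was at 11.5, 55.5, 13.5 and 7.8 TPM in WT and at 5.45, 2.56 and 1.02 TPM in the clone (-2.27, adjusted p = 0.0449). WT library 2 stood far above the other WT libraries, and the call was lost in 23 of 28 alternatives, without that library among them.

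SPON2, a secreted protein of the spondin group, was at 74.4, 205, 62.8 and 35.1 TPM in WT and at 29.3, 3.09 and 2.97 TPM in the clone (-3.29, SE 0.75, adjusted p = 0.0435). Clone library 1 was close to the lowest WT library, and the call was lost in 19 of 28 alternatives. VWA1, a basement membrane protein, was at 12.9, 16.2, 8.86 and 5.96 TPM in WT and at 2.41, 0.656 and 0.133 TPM in the clone (-2.61, adjusted p = 0.0112). The call was lost without clone library 2 or without clone library 3. BGN and ACAN were the calls among 27 tested proteoglycan and matricellular genes, where 0.545% of all tested genes fell. The list's median was -0.37.

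CTSK, cathepsin K, was at 15.9, 16.3, 23.2 and 8.13 TPM in WT and at 2.98, 1.37 and 0.812 TPM in clone 1.1 (-2.63, SE 0.42, adjusted p = 0.00313), with clear separation of the groups. It was the 1 call among 29 tested lysosome genes, whose median was -0.10. TFPI2, an inhibitor of plasmin and related proteases, was at 25.1, 7.43, 22.7 and 31.4 TPM in WT and at 96.1, 199.8 and 116 TPM in the clone (2.70, SE 0.39, adjusted p = 0.00142). Its lowest clone library was above the highest WT library. ADAM19, a membrane metalloprotease, was at 9.98, 6.12, 6.06 and 9.52 TPM in WT and at 25, 62.4 and 23.1 TPM in the clone (1.97, adjusted p = 0.00716), and its call was lost without clone library 2. Of 23 tested matrix proteases and inhibitors, 3 rose and 1 fell (0.186% and 0.545% over all tested genes), with a median of -0.011.

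Collagens and adhesion receptors gave no call. Among 20 tested collagen chains the median was -0.26, and the most abundant, COL4A2 of basement membranes, was at 380.5, 551, 252 and 297 TPM in WT and at 619, 332 and 267 TPM in the clone. COL9A3 measured 339, 419, 347 and 236 and 535, 448 and 186 TPM. Among 27 integrins and laminins the median was -0.0096, and ITGA3 measured 228, 355, 142 and 146 TPM in WT and 459, 227 and 172 TPM in the clone. LAMB1 measured 247, 450.2, 183 and 191 and 342, 232 and 171 TPM. In all 4 genes clone library 1 was the highest of the clone and the groups overlapped.

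FDCSP, IL24 and TRAF1, which act in or near the immune system, fell. They come from the named genes and not from 1 list. FDCSP, a small secreted protein first found in follicular dendritic cells, was at 25.7, 32, 49.5 and 45 TPM in WT and at 0, 3.41 and 0.677 TPM in clone 1.1, where library 1 was listed at 0 (-4.28, SE 0.58, limma, adjusted p = 0.00067). IL24, a cytokine first cloned from differentiating melanoma cells, was at 15.9, 26, 60.4 and 27.2 TPM in WT and at 1.38, 0.763 and 8.76 TPM in the clone (-3.11, SE 0.53, adjusted p = 0.00621). Its call was lost without clone library 2. TRAF1, an adaptor of tumour necrosis factor receptors, was at 29.1, 54.2, 26.1 and 10.4 TPM in WT and at 10.3, 1.93 and 1.06 TPM in the clone (-2.71, adjusted p = 0.0431). Clone library 1 almost reached WT library 4, and the call was lost in 18 of 28 alternatives. IL24 was the 1 call among 22 NF-kB and acute-phase genes, with a median of -0.029.

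MHC class II genes, which present peptides to helper T cells and are expressed by some melanomas, had 1 call in a list of 13 that leaves out HLA-DQA2. HLA-DQA2 was called too (-1.63, adjusted p = 0.00621) and is described with the other observations. HLA-DQA1 was at 36.3, 46, 46.7 and 34.7 TPM in WT and at 25, 11.8 and 5.84 TPM in clone 1.1 (-1.66, SE 0.31, limma, adjusted p = 0.0112). Clone library 1 was the highest of the clone, and the call was lost without clone library 2. All 13 tested class II genes had differences below 0, with a median of -0.61, and in 6 of them every clone library was below every WT library, where 4.71% of all tested genes had that order. Summed, the list came to 3875, 3543, 3760 and 3890 TPM in WT and to 3526, 2324 and 1976 TPM in the clone. Clone library 1 was just under the lowest WT library and the other two well under it. Against WT the list's median was -0.62 in clone 1.2, 0.34 in clone 4.1 and -0.42 in clone 4.2, so a lower level was not particular to clone 1.1. CIITA, the co-activator that switches these genes on, measured 20.2, 10.7, 16.8 and 37.6 TPM in WT and 18.5, 14.2 and 20.3 TPM in clone 1.1, with overlapping groups.

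The related lists gave no call. Among 15 MHC class I genes, which present peptides to killer T cells, the median was -0.21, with B2M at 1009.7, 891, 1364 and 890.1 TPM in WT and 965, 973 and 910.3 TPM in the clone. HLA-B measured 338, 692, 529 and 283 and 571, 369 and 170.2 TPM. Among 25 interferon-stimulated genes the median was -0.14. The most abundant, ISG20, measured 161, 106, 217 and 78.3 TPM in WT and 278, 52.4 and 36.2 TPM in the clone. MX2 measured 47, 36.4, 52.8 and 62 and 45.1, 67 and 66.7 TPM. Among 15 checkpoint and adenosine genes the median was 0.0545, with CD276 at 129, 105, 128 and 120.3 and 142, 133 and 113 TPM and CD70 at 117, 188, 132 and 98.6 and 154, 150.2 and 95.9 TPM. The groups of these genes overlapped.

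The gene that rose furthest was PCDH15, a cadherin-family protein of the links between hair cell stereocilia. It was at 0.679, 0.71, 1.08 and 1.15 TPM in WT and at 53.5, 44 and 19.8 TPM in clone 1.1 (4.29, SE 0.25, limma, adjusted p = 3.51e-08), on chromosome 10 from 53802771 to 55627942 (GRCh38, GENCODE 29). Every clone library was far above every WT library. LYPD3, a GPI-anchored surface protein of the Ly6 group, was at 4.28, 3.92, 3.6 and 6.4 TPM in WT and at 24.7, 102 and 51.7 TPM in the clone (3.25, SE 0.41, adjusted p = 0.000362). ADGRF1, an adhesion G protein-coupled receptor, was at 0.884, 0.17, 0.619 and 4.8 TPM in WT and at 5.63, 18.2 and 28 TPM in the clone (2.86, SE 0.62, adjusted p = 0.0323). WT library 4 nearly reached clone library 1, and the call was lost without WT library 1, 2 or 3 and without clone library 2 or 3.

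NTSR1, the receptor for neurotensin, was at 3.44, 3.41, 3.52 and 2.41 TPM in WT and at 25.2, 25.5 and 5.18 TPM in clone 1.1 (1.96, adjusted p = 0.0174). Clone library 3 was far below the other clone libraries, and the call was lost without clone library 1 or without clone library 2. PLA2G7, a secreted phospholipase that degrades platelet-activating factor, was at 1.25, 0.748, 0.91 and 3.29 TPM in WT and at 5.47, 8.73 and 9.89 TPM in the clone (1.89, adjusted p = 0.00953), with a call lost without clone library 2 or 3. DHRS2, a dehydrogenase of the short-chain family, was at 6.28, 3.95, 2.95 and 6.04 TPM in WT and at 22.4, 21 and 26 TPM in the clone (2.10, SE 0.25, adjusted p = 0.000198). The 3 clone libraries of DHRS2 were close together and far from WT. ACTBL2, an actin-like gene, was at 0.775, 0.591, 0.335 and 0.81 TPM in WT and at 8.76, 4.09 and 2.44 TPM in the clone (1.78, adjusted p = 0.00494).

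Of 12 tested S100 genes, which encode calcium-binding proteins, 2 rose (0.186% over all tested genes) and none was called lower. Their median was 0.28. S100A3 was at 22.8, 6.63, 21.1 and 16 TPM in WT and at 96.7, 64.5 and 117 TPM in clone 1.1 (2.49, SE 0.45, limma, adjusted p = 0.00872), and its call was lost without clone library 3. S100A16 was at 168, 177, 175 and 149.6 TPM in WT and at 543, 481 and 331 TPM in the clone (1.40, SE 0.20, adjusted p = 0.00128). Both lie in the S100 cluster on chromosome 1. S100B, a marker of melanocytic and glial cells, measured 77.2, 48.4, 93.2 and 36.9 TPM in WT and 83.3, 16.1 and 12.7 TPM in the clone and was not called (-1.17, adjusted p = 0.511); it was chosen after its values were seen.

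Among transcription factors of the AP-1 group, 1 of 13 tested rose and none was called lower, with a list median of 0.18. Of the noncoding RNAs, AC003092.1, a transcript near TFPI2 on chromosome 7, was at 0.228, 0.201, 0.401 and 0.619 TPM in WT and at 4.67, 11.1 and 2.25 TPM in the clone (2.17, limma, adjusted p = 0.0137). LINC00973 was at 2.34, 1.03, 4.14 and 2.33 TPM in WT and at 7.97, 10.1 and 7.63 TPM in the clone (1.54, adjusted p = 0.00909). Both calls were lost without clone library 2. ATP10A, a lipid flippase, fell from 5.46, 4.69, 5.22 and 5.91 TPM in WT to 0.213, 0.245 and 0.138 TPM in the clone (-2.40, SE 0.13, adjusted p = 1.26e-08), with little spread in either group.

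**Figure D3:**
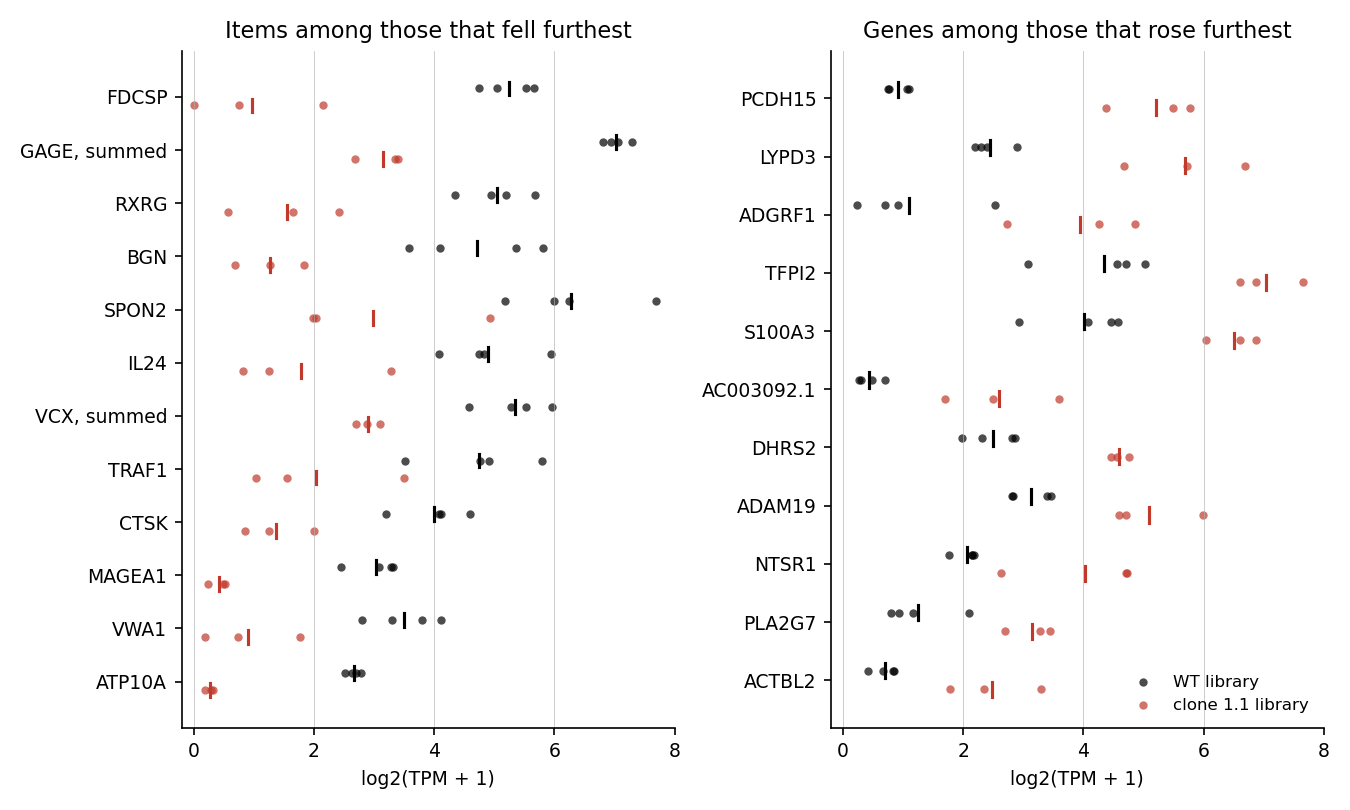
Log2(TPM + 1) in each WT library (black) and each clone 1.1 library (red) for items among those that fell furthest (left) and rose furthest (right), with a bar at each group mean; GAGE and VCX are sums over their genes. The groups are apart in all rows, which were picked by their difference between these groups. SPON2 (29.3 against 35.1 TPM), TRAF1 (10.3 against 10.4) and ADGRF1 (5.63 against 4.80) come closest.

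Signalling pathways upstream of growth gave few calls. Of 24 tested ERK output genes none was called (median 0.052). CCND1, cyclin D1, measured 284, 167, 186 and 396 TPM in WT and 404, 602 and 525 TPM in clone 1.1 (1.05, limma, adjusted p = 0.112): every clone library was above every WT library, and the gene was called when WT library 4 was left out. FOSL1, an AP-1 factor, measured 209.8, 107, 138 and 443 and 159, 422 and 591 TPM, with overlapping groups. No gene was called among 22 YAP and TEAD genes (median 0.23), 21 Wnt genes (0.093) or 21 BMP and ID genes (0.14). Their most abundant members overlapped between the groups, among them WWTR1, the co-activator TAZ, at 592, 628, 573 and 413 and 812, 445 and 372 TPM, and AXL, a receptor kinase, at 123, 78.4, 79.8 and 177 and 125, 107 and 277 TPM. CTNNB1, beta-catenin, measured 292, 216, 269 and 303 TPM in WT and 285, 271 and 267 TPM in the clone. SFRP1, a secreted Wnt inhibitor, measured 133, 159, 124 and 91.8 and 210.4, 134 and 83.5 TPM. ID1, an inhibitor of basic helix-loop-helix factors, measured 271, 192, 323 and 205 and 343, 457 and 252 TPM, and ID3 215, 164, 231 and 156 and 169, 287 and 186 TPM.

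Cell cycle genes were not called, yet they lay to one side. All 32 S phase genes had differences above 0, with a median of 0.54, and 29 of 30 G2 and M phase genes did, with a median of 0.33. In none of these genes were the groups apart. Over all tested genes, 48.6% had differences below 0. Genes of a list were measured in the same libraries, so their number is not one of separate observations. The S phase median against WT was 0.17 in clone 1.2, -0.22 in clone 4.1 and 0.70 in clone 4.2. For G2 and M phase genes it was 0.37, -0.33 and 0.44 in the same order. RRM2, a subunit of ribonucleotide reductase, measured 310.4, 57.2, 201 and 577 TPM in WT and 169.8, 671 and 645 TPM in clone 1.1. PCNA, the sliding clamp of replication, measured 244, 64.7, 214 and 388 and 171, 396 and 419 TPM. CCNB1, cyclin B1, measured 311, 86.4, 528 and 402 and 179, 585 and 463 TPM, and UBE2C 241, 70.2, 252 and 352 and 140.4, 473 and 329 TPM. WT library 2 was the lowest of all 7 in each of these 4 genes, and clone library 1 the lowest of the clone. Members of the p53 list gave no call among 23 (median 0.0125). CDKN1A, the inhibitor p21, measured 66.6, 104, 96.1 and 87.5 TPM in WT and 124, 128 and 120.3 TPM in clone 1.1, with every clone library above every WT library (0.50, adjusted p = 0.424). BAX measured 141, 88.5, 114 and 177 and 135, 167 and 218 TPM. Among 15 BCL2 family genes the median was 0.18, with MCL1 at 175, 132, 195 and 209.8 and 208, 173 and 149.7 TPM.

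In the clustered protocadherins, adhesion genes of neurons that lie in arrays on chromosome 5, none of 25 tested was called. Their median was -0.46, 24 of the 25 lay below 0, where 48.6% of all tested genes did, and in 6 every clone library was below every WT library, where 4.71% of all tested genes had that order. Summed, they came to 196.9, 194.4, 169.2 and 174.2 TPM in WT and to 160.7, 126.2 and 105.3 TPM in clone 1.1, so the sums did not overlap. The sums of clones 1.2 and 4.2 overlapped those of clone 1.1, and those of clone 4.1 did not. Medians against WT were -0.14 in clone 1.2, -0.047 in clone 4.1 and -0.27 in clone 4.2, with 3, 0 and 1 members called lower. PCDHGC3, the most abundant, measured 75.8, 76.3, 62.5 and 74.5 TPM in WT and 57.5, 52.8 and 48.7 TPM in the clone (-0.44, adjusted p = 0.269). PCDHB2 measured 15.7, 12.3, 15 and 14.2 and 12.9, 13.4 and 9.46 TPM. PCDH15 is not part of these arrays. Among 26 axon guidance genes the median was 0.034, with SEMA3B at 178, 179, 181 and 123 and 206, 80.7 and 44 TPM and EPHA2 at 70.3, 47.2, 51.2 and 112 and 80.7, 61.9 and 159 TPM.

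Stress and metabolic lists shared 1 call. SLC7A11, the cystine importer that feeds glutathione synthesis, was at 14.2, 7.36, 8.52 and 20.7 TPM in WT and at 21.5, 41.4 and 43.8 TPM in clone 1.1 (1.46, SE 0.33, limma, adjusted p = 0.04). Clone library 1 was barely above WT library 4, and the call was lost in 16 of 28 alternatives. It was the 1 call both among 29 genes of the integrated stress response (median 0.15) and among 25 antioxidant, iron and ferroptosis genes (median 0.29). Of 23 unfolded protein response genes none was called (median -0.13), with CALR at 919, 601, 1067 and 1045 and 826, 1016 and 956 TPM and HSP90B1 at 562, 647, 534 and 461 and 572, 414 and 428 TPM. None was called among 33 nuclear respiratory chain genes (median -0.0011), 13 mitochondrially encoded genes (-0.023), 23 sterol genes (-0.21), 18 fatty acid genes (-0.30) or 31 glycolysis and hypoxia genes (-0.21). Their most abundant members overlapped between groups: ATP5F1B measured 777, 487, 748 and 809 and 696, 723 and 818 TPM, COX6A1 869, 569, 894 and 774 and 860.2, 774 and 771 TPM, and MT-CO1 1851, 2068, 5442 and 1140.4 and 1646, 3548 and 1299.5 TPM. FDPS measured 174, 101, 165 and 179.9 and 107, 158 and 157 TPM. FASN measured 256, 259, 186 and 249 and 239, 187 and 149.9 TPM and ACLY 156, 152, 129 and 134 and 154, 140.5 and 124 TPM. GAPDH measured 11812, 22044, 8866 and 9935 and 11843, 8863 and 7969 TPM and ENO1 3020.4, 4568, 2352 and 2733 and 3166, 2922 and 2944 TPM.

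The remaining lists had no call either. They were 21 chromatin genes (median 0.12), 29 HOX genes (-0.14), 6 galectins (-0.14), 9 IGF-binding genes (0.27) and 25 genes near SOX10 (0.14). TRIM28, a co-repressor, measured 1121, 776, 967 and 1794 TPM in WT and 1039.9, 1695 and 1575 TPM in clone 1.1, and HDAC2 204, 139, 166 and 212 and 169.9, 200.3 and 204 TPM. HOXB2 measured 47, 36.8, 47.2 and 46.7 and 44.6, 41 and 43 TPM and HOXC10 46.2, 58.8, 47.9 and 46.2 and 40.0, 47.2 and 53.5 TPM. LGALS1, galectin-1, which is also a neighbour of SOX10, measured 1718, 1597, 1380.5 and 1487 and 2478, 1407 and 1406 TPM, and LGALS3BP 449.6, 580.1, 406 and 367 and 579.9, 391.999 and 318 TPM. EIF3L, another neighbour, measured 629.6, 735, 469 and 538 and 710.4, 479 and 520.4 TPM. IGF2BP3, an RNA-binding protein, measured 156, 117, 111 and 118 TPM in WT and 254, 206 and 159 TPM in the clone, with every clone library above every WT library and no call (adjusted p = 0.0783). IGFBP3 measured 90.5, 254, 82.9 and 60.5 and 238, 109 and 36.7 TPM.

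**Figure D4:**
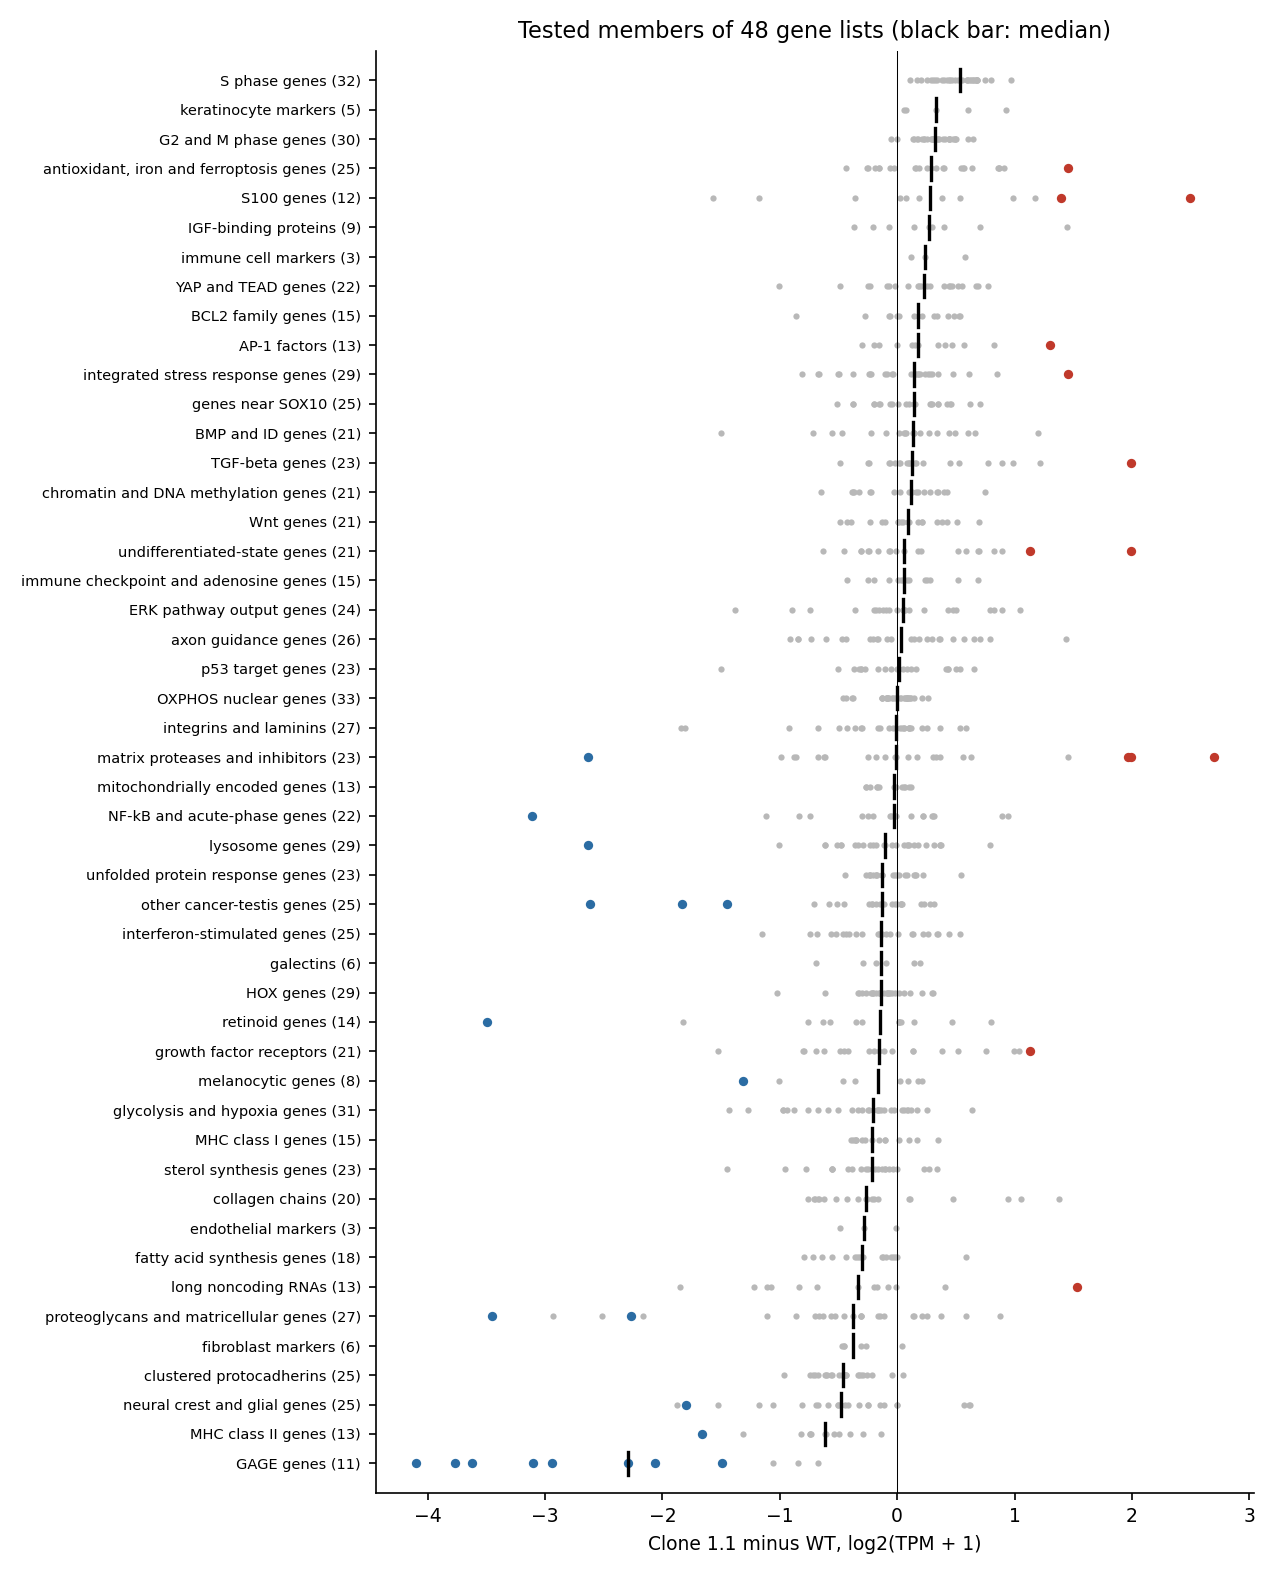
Clone 1.1 minus WT, log2(TPM + 1), for the tested members of each of 48 gene lists (number tested in brackets), 1 point a gene; red and blue points were called higher and lower, and the black bar is the list's median. GAGE genes have the lowest median (-2.29) and S phase genes, none of them called, the highest (0.54).

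Clone 1.1 was then compared with the other A375 clones, which share no libraries with WT. A difference from the mean of several clones does not show that each of them differs. Against clone 1.2, which has the same R1_del label, 1028 genes were called (6.16%): 246 were higher in clone 1.1 (1.47%) and 782 lower (4.68%). Without clone 1.1 library 2 the count was 670. Against the mean of clones 1.2, 4.1 and 4.2, 147 genes were called (0.881%), 43 higher (0.258%) and 104 lower (0.623%). This count was 235 without clone 1.1 library 1 and 68 without library 2.

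Among the genes that rose, PCDH15 exceeded the mean of the other clones by 3.83 (limma, adjusted p = 5.25e-08), with means of 0.369 TPM in clone 1.2, 0.316 in clone 4.1 and 9.0 in clone 4.2. LYPD3 exceeded it by 3.12 (adjusted p = 0.000102), DHRS2 by 2.77 (2.1e-06) and NTSR1 by 2.25 (0.00118). TFPI2 (1.74, adjusted p = 0.011), S100A3 (1.84, 0.0175), ACTBL2 (1.35, 0.00844), SLC7A11 (1.3, 0.0202) and AC003092.1 (1.63, 0.0224) passed the same test. PCDH15 and TFPI2 were also called higher than WT in clone 4.2, though not in clones 1.2 or 4.1. AC003092.1 averaged 0.129 TPM in clone 1.2, 1.49 in clone 4.1 and 2.23 in clone 4.2, against 0.362 in WT. EGFR did not: it measured 12.5 TPM in clone 1.2 and the difference from the mean of the other clones was 0.80, under the minimum. ADGRF1 (1.12, adjusted p = 0.349), ADAM19 (0.78, 0.217), PLA2G7 (0.97, 0.113), LINC00973 (0.68, 0.182) and S100A16 (0.42, 0.254) were not called in this test.

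Among the genes that fell, BGN was lower than the mean of the other clones (-2.88, limma, adjusted p = 0.00204), as were VCX3A (-2.14, 0.000149), MAGEA1 (-2.21, 2.71e-05), GAGE2A (-2.99, 1.56e-07), CTSK (-1.97, 0.00624), IL24 (-2.04, 0.0259), FDCSP (-2.01, 0.0413), VWA1 (-1.73, 0.0376), SPANXB1 (-1.53, 0.000249) and ATP10A (-1.14, 2.71e-05). For some of these a high level in 1 or 2 clones set that mean. BGN averaged 29.6 TPM in clone 1.2, 53.8 in clone 4.1 and 3.26 in clone 4.2, against 1.53 in clone 1.1. It was also called lower than WT in clone 4.2. ATP10A averaged 17.2 TPM in clone 1.2 and 0.0225 TPM in clone 4.1, was listed at 0 in clone 4.2, and averaged 0.199 TPM in clone 1.1. IL24 averaged 102 TPM in clone 1.2, 2.74 in clone 4.1 and 7.79 in clone 4.2, against 3.63 in clone 1.1. FDCSP averaged 0.266, 10.1 and 53.9 TPM in the same order, against 1.36 in clone 1.1. SPANXB1, at 0 in clones 4.1 and 4.2, was high in clone 1.2 alone of the 3, and CTSK averaged 2.13 TPM in clone 1.2 against 1.72 in clone 1.1. MITF was under the minimum (-0.72, adjusted p = 0.0294), with means of 16.5 TPM in clone 1.2, 16.6 in clone 4.1 and 11.3 in clone 4.2. RXRG (-1.29, adjusted p = 0.0518), SOX8 (-0.66, 0.296), ACAN (-0.75, 0.462), SPON2 (-2.16, 0.103), TRAF1 (-1.53, 0.175), HLA-DQA1 (-1.0, 0.0616) and CTAG2 (-0.26, 0.437) were not called. RXRG averaged 0.825 TPM in clone 1.2, 40.5 in clone 4.1 and 4.3 in clone 4.2, so its low level was found in other clones too. SOX10 differed from the mean of the other clones by -0.20 (adjusted p = 0.52).

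Against WT, clone 1.2 had 669 called genes (4.01%), with 2.57% higher and 1.44% lower. The direct comparison of both R1_del clones is given for some of the named genes, which were chosen by their difference from WT. GAGE12C was lower in clone 1.1 than in clone 1.2 by -6.61 on the log2 scale (limma, adjusted p = 1.54e-09), SPANXB1 by -4.96 (1.86e-10), IL24 by -4.86 (1.25e-05) and BGN by -3.65 (0.000238). PCDH15 was higher in clone 1.1 by 4.76 (adjusted p = 1.54e-09) and NTSR1 by 3.48 (1.51e-05). RXRG (0.70, adjusted p = 0.229), FDCSP (0.63, 0.479), CTSK (-0.24, 0.719), SOX8 (0.22, 0.684) and ACAN (0.72, 0.366) were not called between the R1_del clones. SOX10 differed by 0.18 (adjusted p = 0.476).

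Called genes were not spread evenly over the chromosomes. The X chromosome held 20 of the 91 genes that fell and none that rose, or 3.47% of its 576 tested genes, where 0.731% were called over all chromosomes; its median difference was -0.018. GAGE, with 8 of these calls, VCX, with 3, and MAGEA1, SPANXB1, CTAG2 and BGN lie there. Each copy of a family was counted singly here, so these families weigh on the share of this chromosome. Among the other chromosomes the share called reached 1.22% on chromosome 15.

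Chromosome 1 differed between its arms in a way that few called genes show. Genes that start at or beyond 140 Mb, on the long arm, had a median difference of -0.26 over 746 tested genes, and 80.2% of them lay below 0. The 932 genes before that position had a median of 0.048. The split was chosen after the values were seen, so no test is given. Cut into bins of 20 Mb with at least 30 tested genes, the genome gave 152 bins. All 6 bins of the long arm of chromosome 1 had medians between -0.29 and -0.24, and the other bins lay between -0.13 and 0.15. Regional shifts of this size were not particular to clone 1.1. Against WT, clone 1.2 had medians of -0.45, -0.42 and -0.36 in the bins of chromosome 13 from 20 to 80 Mb, and clone 4.1 had -0.49 in the first 20 Mb of chromosome 17 and 0.28 and 0.36 in the bins of chromosome 15 from 60 to 100 Mb.

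The shift was present in every library of clone 1.1. With each gene centred on its mean over all 18 A375 libraries, the long-arm median minus the short-arm median was -0.26, -0.31 and -0.28 in the clone's libraries. In the other 15 A375 libraries it was between 0.0077 and 0.095. Of the long-arm genes, 8 were called lower (1.07%) and 2 higher. The former were RXRG, IL24, CTSK, CADM3, LYST, ECM1, IFI16 and IL6R, and the latter S100A3 and S100A16. RXRG, IL24 and CTSK, the lowest of these calls, differed by -3.50, -3.11 and -2.63. What underlies the shift was not tested.

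**Figure D5:**
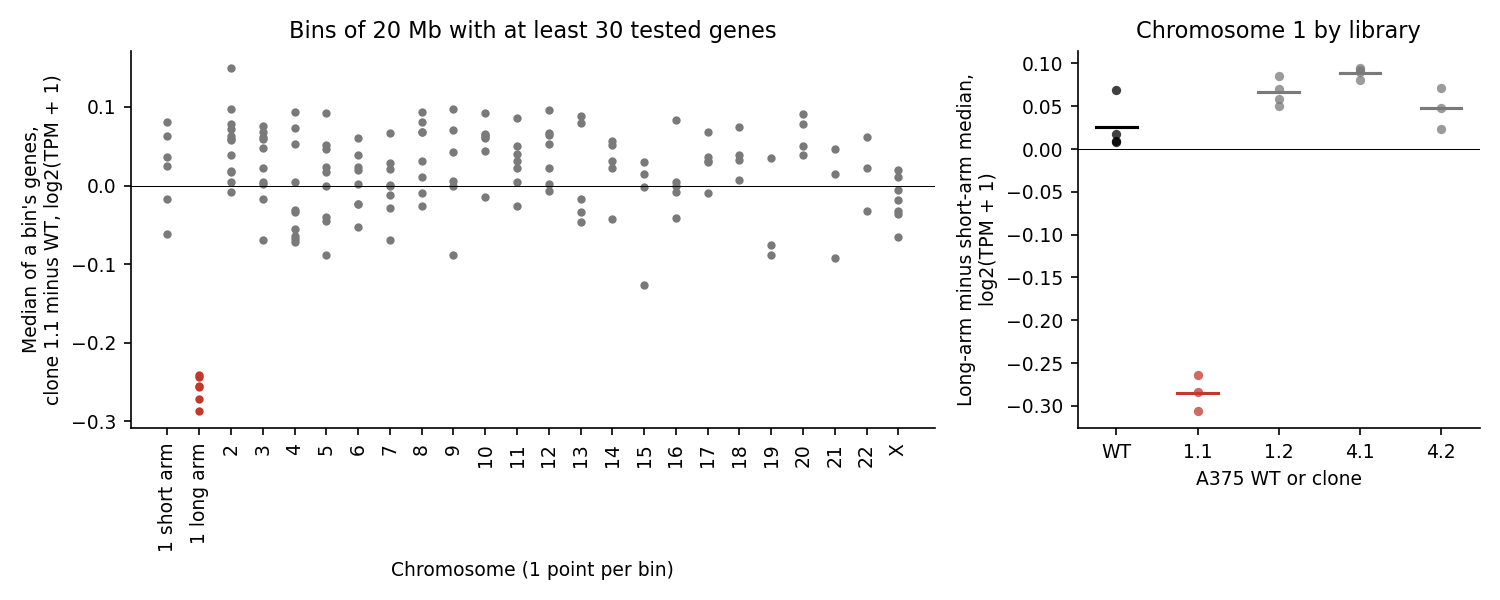
Left, the median of clone 1.1 minus WT, log2(TPM + 1), in each of 152 bins of 20 Mb by chromosome, with the long arm of chromosome 1 in red; right, the long-arm minus short-arm median of chromosome 1 in each A375 library, with a bar at the group mean. The 6 red bins lie between -0.29 and -0.24, below every other bin, and the clone 1.1 libraries (-0.31 to -0.26) lie below all others.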

How the data were processed

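Poly-A selected RNA of A375 WT and its clones was sequenced, and the authors deposited gene-level TPM. DRAGEN and GRCh38 are named, without role or version, per the submitters' processing notes, and the annotation release is not given in the sources used here. Depth is unknown, so no counting interval is given. The table has 60871 lines for 60671 Ensembl identifiers, and 200 repeated lines were dropped. Its 6 columns that match no sample were not used.

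All 18 A375 libraries entered 1 linear model of log2(TPM + 1), fitted by limma (version 3.58.1, under R version 4.3.3) with 1 coefficient a group, a trended variance and two-sided tests. A gene needed at least 1 TPM in at least 3 libraries (16692 genes), and Benjamini-Hochberg adjustment ran over all of these. A call needed an adjusted p under 0.05 and a log2 difference of at least 1. The fit was tested on simulated data, with independent noise for each gene and library and changes planted only in the more abundant genes. That test does not cover scarce genes or variation that genes share. Tables and sums were made with Python 3.11.15, pandas 2.3.3 and numpy 2.4.6. Single values used exact permutation tests. Gene positions are from GENCODE 29 and promoters from RefSeq, with chromosome 8 left out of the motif shares.

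Named genes are the 12 called genes furthest from 0 in each direction (copies of a family as 1), up to 6 called genes of each list, or its 2 most abundant tested genes where none was called, and SOX10; some of these are not reported here. The members, the 48 lists and the tests were chosen with earlier results of these data known. Alternatives changed the pseudocount, filter, scaling, model and libraries.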

Additional observations from a re-analysis of the deposited data

Results flagged for a closer look

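In 11 of the 103 named genes 1 WT library stood far from the other WT libraries, by the gap to its neighbour over the range of the 4; chance flags about 1 in 20. WT library 2 was the high one in ACAN (55.5 TPM), CD68 (119.7 TPM), HOXC10 (58.8 TPM) and IGFBP3 (253.7 TPM) and the low one in HOXB2 (36.8 TPM). WT library 3 was low in FASN (186.5 TPM) and PCDHGC3 (62.5 TPM) and high in MT-ATP6 (6898.5 TPM). WT library 4 was high in ADGRF1 (4.80 TPM) and low in NTSR1 (2.41 TPM) and SEMA3B (123.2 TPM).

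In 9 named genes the calls against WT had opposite directions in clones 1.1 and 1.2, although both carry the R1_del label. A call in the direct comparison of these clones (limma) was also required for a gene to be listed here. Opposite calls against the same WT libraries already imply a gap between the clones, so the direct call is no separate evidence. GAGE12C (-6.61), GAGE12D (-6.37), GAGE1 (-5.71), GAGE2E (-5.68), GAGE12J (-3.10), SPANXB1 (-4.96), IL24 (-4.86) and ATP10A (-3.92) were lower in clone 1.1, as log2 differences from clone 1.2. NTSR1 was higher in clone 1.1 by 3.48.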

How the results depend on the processing

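The 122 calls (31 higher, 91 lower) became 68 with a mean of at least 5 TPM (47 lower), 34 in a fit of clone 1.1 and WT alone (7 higher, 27 lower) and 28 with only libraries of low mitochondrial share (4 higher, 24 lower). Quantile normalization gave 48 higher. Without each library in turn the counts ran from 56 to 223 in all, 12 to 69 higher and 44 to 154 lower, and the ends were clone libraries 2 and 1. The 1028 calls against clone 1.2 became 495 with a mean of at least 5 TPM, 161 with low mitochondrial share and 670 to 1457 without each library. The 147 calls against the mean of the other clones became 258 with a pseudocount of 0.1, 79 with a mean of at least 5 TPM, 21 with low mitochondrial share and 68 to 235 without each library. With no minimum difference, 50 genes were higher than WT, 2202 were called against clone 1.2 and 362 against the mean of the other clones. With a replicate block, 1 gene was called against WT, 0 higher and 1 lower. The labels do not say that the numbers pair libraries. Deviations of same-numbered libraries correlated at -0.10, -0.36 and -0.030 across genes, and clone libraries 1, 2 and 3 correlated best with WT libraries 2 (0.67), 3 (0.29) and 4 (0.59), so no library correlated best with its own number. Over the 103 named genes and all alternatives, 2685 values kept their side of the threshold, 179 lost it and 2 gained it. A change of sign counted as a reversal only where either fit called the gene or both differences exceeded their SE. By that rule 0 values were reversed. Other changes of sign did occur in genes that were not called: IGFBP3 ran from -0.70 to 0.63 and COL4A2 from -0.25 to 0.36. Apart from fewer genes or samples, the cause of these changes was not tested. Depth is unknown and its limit could not be computed.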

Other observations

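The genes in this paragraph and the next were chosen from the 122 called genes after their values were seen. They add genes that no list above holds. NCAM1 and CADM1, adhesion molecules of the immunoglobulin group, fell. NCAM1 was at 3.17, 3.0, 3.43 and 2.24 TPM in WT and at 0.307, 0.475 and 0.35 TPM in clone 1.1 (-1.52, limma, adjusted p = 0.000124), and CADM1 was at 58.4, 75.9, 54.9 and 52.2 and 42.5, 19.1 and 14.5 TPM (-1.35, adjusted p = 0.0126). CD99, a surface glycoprotein, was at 47.4, 48.5, 33 and 31.9 and 23.7, 15.7 and 17 TPM (-1.05, adjusted p = 0.00852). PXDN, a peroxidase that crosslinks collagen IV, was at 5.55, 5.3, 3.95 and 3.38 and 0.075, 0.263 and 0.132 TPM (-2.24, adjusted p = 4.18e-05). The groups of these genes did not overlap, and clone library 1 was the nearest to WT in CADM1 and CD99. PXDN was also called lower than WT in clones 4.1 and 4.2 but higher in clone 1.2, and CD99 was called higher in clone 1.2.

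NFATC2, a transcription factor activated by calcineurin, fell from 89.2, 113, 107 and 87.1 TPM in WT to 39.2, 26.5 and 25.3 TPM in clone 1.1 (-1.69, limma, adjusted p = 0.00105). NDN, the imprinted gene of the protein necdin, fell from 13.5, 12.3, 14.8 and 13.5 to 4.5, 4.55 and 4.22 TPM (-1.42, adjusted p = 4.17e-05), with close values within each group. HLA-DQA2, a near copy of HLA-DQA1, fell from 16, 20.1, 18.3 and 16.1 to 9.06, 5.78 and 2.13 TPM (-1.63, adjusted p = 0.00621), and reads may be split between these copies. JAG1, a ligand of Notch receptors, rose from 8.45, 9.14, 6.35 and 10.2 TPM in WT to 29.1, 35.3 and 24.8 TPM in the clone (1.69, adjusted p = 2.43e-05). TNFRSF21, a death receptor, rose from 48.9, 39.2, 28.3 and 58.5 to 109, 116 and 103 TPM (1.35, adjusted p = 0.00652). ANPEP, a membrane aminopeptidase, rose from 62.1, 42.4, 39.1 and 80.8 to 127, 152 and 152 TPM (1.40, adjusted p = 0.0123), and F2RL1, a receptor cleaved by proteases, from 3.32, 2.24, 1.69 and 2.69 to 9.87, 11.5 and 6.27 TPM (1.53, adjusted p = 0.00235). JAG1 was also called higher than WT in clone 4.2, TNFRSF21 in clone 1.2 and ANPEP in both. NFATC2 was also called lower than WT in clone 1.2 and HLA-DQA2 in clone 4.2, while NDN and F2RL1 were called in no other A375 clone.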
